A study of Mus musculus with 51 samples.

Results

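Eukaryotic translation initiation factors bring the initiator tRNA, the small ribosomal subunit and the capped mRNA together, and their genes were followed here from the mouse oocyte to the blastocyst in fertilised and cloned embryos. The group is every gene whose symbol on the array begins with Eif and a digit from 1 to 6, apart from the X- and Y-linked pair Eif2s3x and Eif2s3y. It holds 45 of the 18193 genes measured. Only probe sets with exactly 1 gene symbol were used, and each gene was read from the one that varied most over all 51 arrays.

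Each array held the amplified RNA of 1 oocyte or 1 whole embryo. The 13 groups were 3 MII oocytes (mature, unfertilised eggs arrested in metaphase II) of B6D2F1 females, IVF embryos at 6 stages with 3 arrays each, and cloned embryos at the same 6 stages with 5 arrays each. IVF embryos came from B6D2F1 eggs and B6D2F1 sperm. Clones were made by transferring the nucleus of a Sertoli cell, the supporting cell of the testis tubule, from a B6CBF1 donor into a B6D2F1 oocyte. 1-cell embryos were taken at 16 h, 2-cell at 32 h, 4-cell at 48 h, 8-cell at 62 h, morulae at 72 h and blastocysts at 84 h, counted from sperm addition in IVF embryos and from activation in clones, and all were kept in KSOM medium. Donor nucleus, strain of the nuclear genome and handling therefore changed together between clones and IVF embryos and cannot be told apart. Donor cells were also all male, while the labels give no sex for the IVF embryos. Replicates were labelled as biological, but the labels do not say whether they came from separate females or sessions, so p-values measure only the spread between these embryos.

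Values are log2 RMA values that had been centred for each probe set, so a difference of 1 between arrays is a factor of 2, and a value of 0 is that probe set's median array, not absence. Levels of different genes cannot be compared on this scale. Because arrays are scaled to each other, a change in RNA per cell, in cell number or in the total RNA of the embryo cannot be told apart. The labelling starts at the poly(A) tail, so tail length and mRNA amount cannot be told apart either.

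The embryos carried the markers of their labelled stages. The 8 oocyte genes had a median level of 6.05 in MII oocytes and -3.05 in IVF blastocysts, 4 genes of the 2-cell stage were highest in IVF 2-cell embryos (6.63; 5.54 in cloned 2-cell embryos), and of 7 trophectoderm genes 5 rose from morula to blastocyst in IVF embryos, while 6 rose and 1 fell in clones. None of 11 Sertoli cell genes was higher in clones than in IVF embryos at any stage by limma (1, Gata4, was lower at the 8-cell stage, and between 0 and 4 a stage had an unadjusted p under 0.05 in either direction). None of 6 sperm genes was called either (0 to 2 unadjusted), while 2 of 9 cumulus cell genes, Fst and Col4a1, were higher in 8-cell clones. In the library labelled 8-cell clone replicate 4 the Y-linked Eif2s3y stood at -5.25, although the donor cells were male. Oocytes stood at -5.42 to -5.37 and IVF 8-cell embryos 1 and 2 at -5.41 and -5.50. The X-linked Xist stood at 2.20 in this library, -4.82 to -4.62 in oocytes, 2.69 and 2.17 in those IVF embryos and 2.07 to 5.31 in the other 8-cell clones. Eif2s3y was also low, at -2.70, in 8-cell clone replicate 2. Calls that were lost without replicate 4 are named. Cloned 1-cell replicates 4 and 5 also stood apart, with hybridisation controls at 0.346 and 0.496 against -1.02 to -0.708 in the other 3. Results of the initiation factor genes with 1-cell clones were therefore repeated without them, a choice made after seeing the data. Results of the marker genes and of the lists of other translation genes were not.

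In the textbook scheme, Eif2 delivers the initiator methionine tRNA, Eif2b recharges Eif2 with GTP, and kinases that phosphorylate Eif2 block this recharging. Eif4e binds the mRNA cap and recruits the Eif4g scaffold and the Eif4a helicase, the Eif4e-binding proteins prevent this, and the large Eif3 complex joins the mRNA to the small ribosomal subunit before Eif1, Eif1a, Eif5 and Eif5b select the start codon and join the large subunit. Mouse oocytes stop transcription before ovulation and live on stored mRNA, and the embryo's own genome is switched on mainly at the 2-cell stage. The genes Eif4e1b, Eif4g1 and Eif2s1 were not analysed here.

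The promoters of the members give a view of the DNA next to these genes. RefSeq promoter sequences were matched for 36 of the 45 genes (GRCm38.p6, the 250 bases before the annotated start). Each was searched on both strands for CCGGAAG, a core recognised by Ets family factors, for CACGTG, the E-box of Myc family factors, and for TGATGNAA, the form of the Atf4 composite element. CCGGAAG was present in 11 of the 36 promoters (30.6%) and in 7.8% of 27025 promoters, CACGTG in 8 (22.2%) and in 6.9% of all, and TGATGNAA in 0 and in 3.9% of all. Matches of different motifs can share bases, the motifs were chosen with earlier results known, and a match describes the letters, not a bound site. The 5 promoters printed here all hold a match and belong to genes that were lower in clones at 1 stage or more. Eif1ad, Eif1ax, Eif3m, Eif4e, Eif4e2, Eif4ebp2, Eif4h, Eif5a and Eif5a2 also hold a match but were not called lower in clones at any stage. Other members lower in clones, among them Eif3h, Eif3i, Eif5 and Eif2s2, were not among those with a match. That group can include members with no matched promoter sequence. A link between a match and the level in clones was not tested. The sequences are written 5′ to 3′ along the gene's own strand, with the motif in capitals (CTTCCGG is CCGGAAG read on the opposite strand).
Eif3c, chr7:126566367-126566616, minus strand: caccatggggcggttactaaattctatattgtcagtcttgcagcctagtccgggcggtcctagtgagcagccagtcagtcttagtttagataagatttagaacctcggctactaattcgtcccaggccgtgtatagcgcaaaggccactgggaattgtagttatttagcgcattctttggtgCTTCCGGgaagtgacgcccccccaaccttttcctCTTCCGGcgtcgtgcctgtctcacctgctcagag
Eif3d, chr15:77970825-77971074, minus strand: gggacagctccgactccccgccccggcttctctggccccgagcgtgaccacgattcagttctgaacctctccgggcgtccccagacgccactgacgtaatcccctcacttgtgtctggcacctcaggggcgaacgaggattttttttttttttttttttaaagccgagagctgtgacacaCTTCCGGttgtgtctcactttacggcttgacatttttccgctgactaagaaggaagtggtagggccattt
Eif3l, chr15:79074973-79075222, plus strand: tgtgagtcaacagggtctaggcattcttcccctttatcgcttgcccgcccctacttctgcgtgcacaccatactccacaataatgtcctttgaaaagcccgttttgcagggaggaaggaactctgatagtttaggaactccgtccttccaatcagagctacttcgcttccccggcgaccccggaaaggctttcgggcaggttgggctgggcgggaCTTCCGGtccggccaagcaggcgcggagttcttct
Eif3f, chr7:108934165-108934414, plus strand: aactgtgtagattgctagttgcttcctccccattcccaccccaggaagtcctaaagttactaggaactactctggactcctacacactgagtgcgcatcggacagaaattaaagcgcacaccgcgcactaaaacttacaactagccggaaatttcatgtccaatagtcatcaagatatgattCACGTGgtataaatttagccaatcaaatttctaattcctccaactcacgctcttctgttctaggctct
Eif4a1, chr11:69672424-69672673, minus strand: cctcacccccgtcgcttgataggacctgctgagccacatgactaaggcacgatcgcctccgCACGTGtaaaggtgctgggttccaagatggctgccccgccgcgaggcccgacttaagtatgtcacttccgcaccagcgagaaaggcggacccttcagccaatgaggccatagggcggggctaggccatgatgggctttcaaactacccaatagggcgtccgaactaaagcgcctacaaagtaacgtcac

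In Eif3c the motif lay 34 and 68 bases before the start, in Eif3d 70 and in Eif3l 35. In Eif3f the E-box lay 68 bases before the start and in Eif4a1 189. Both motifs were found together in Eif1b, Eif5a and Eif5a2.

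Most initiation factor genes were at their lowest in the oocyte or the zygote. In the oocyte and IVF series 23 members (51.1%) had their lowest group mean in MII oocytes, against 14.4% of all genes, and 11 (24.4%) had it in 1-cell embryos, against 11.2%. The lowest mean lay in the blastocyst for 1 member (2.2%), against 46.8% of all genes. The median of the 45 members climbed from -3.05 in MII oocytes to -1.43, 0.01, 0.32 and 0.51 in IVF 1-, 2-, 4- and 8-cell embryos and was 0.20 and 0.14 in morulae and blastocysts. In clones the corresponding medians were -1.71, -0.67, 0.14, 0.15, 0.13 and 0.02. On the probe sets used, members had a median SD over the 51 arrays of 1.68, against 1.01 for all genes. Among members it ran from 0.16 in Eif4a3 to 3.83 in Eif4e3. Each gene's probe set was chosen for the greatest SD, which favours genes with more probe sets. Of the 45 members 35 had more than 1 probe set, against 9010 of the 18193 genes. The part of this choice in the SD difference, and in the shares of members called against all genes, was not tested.

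**Figure D1:**
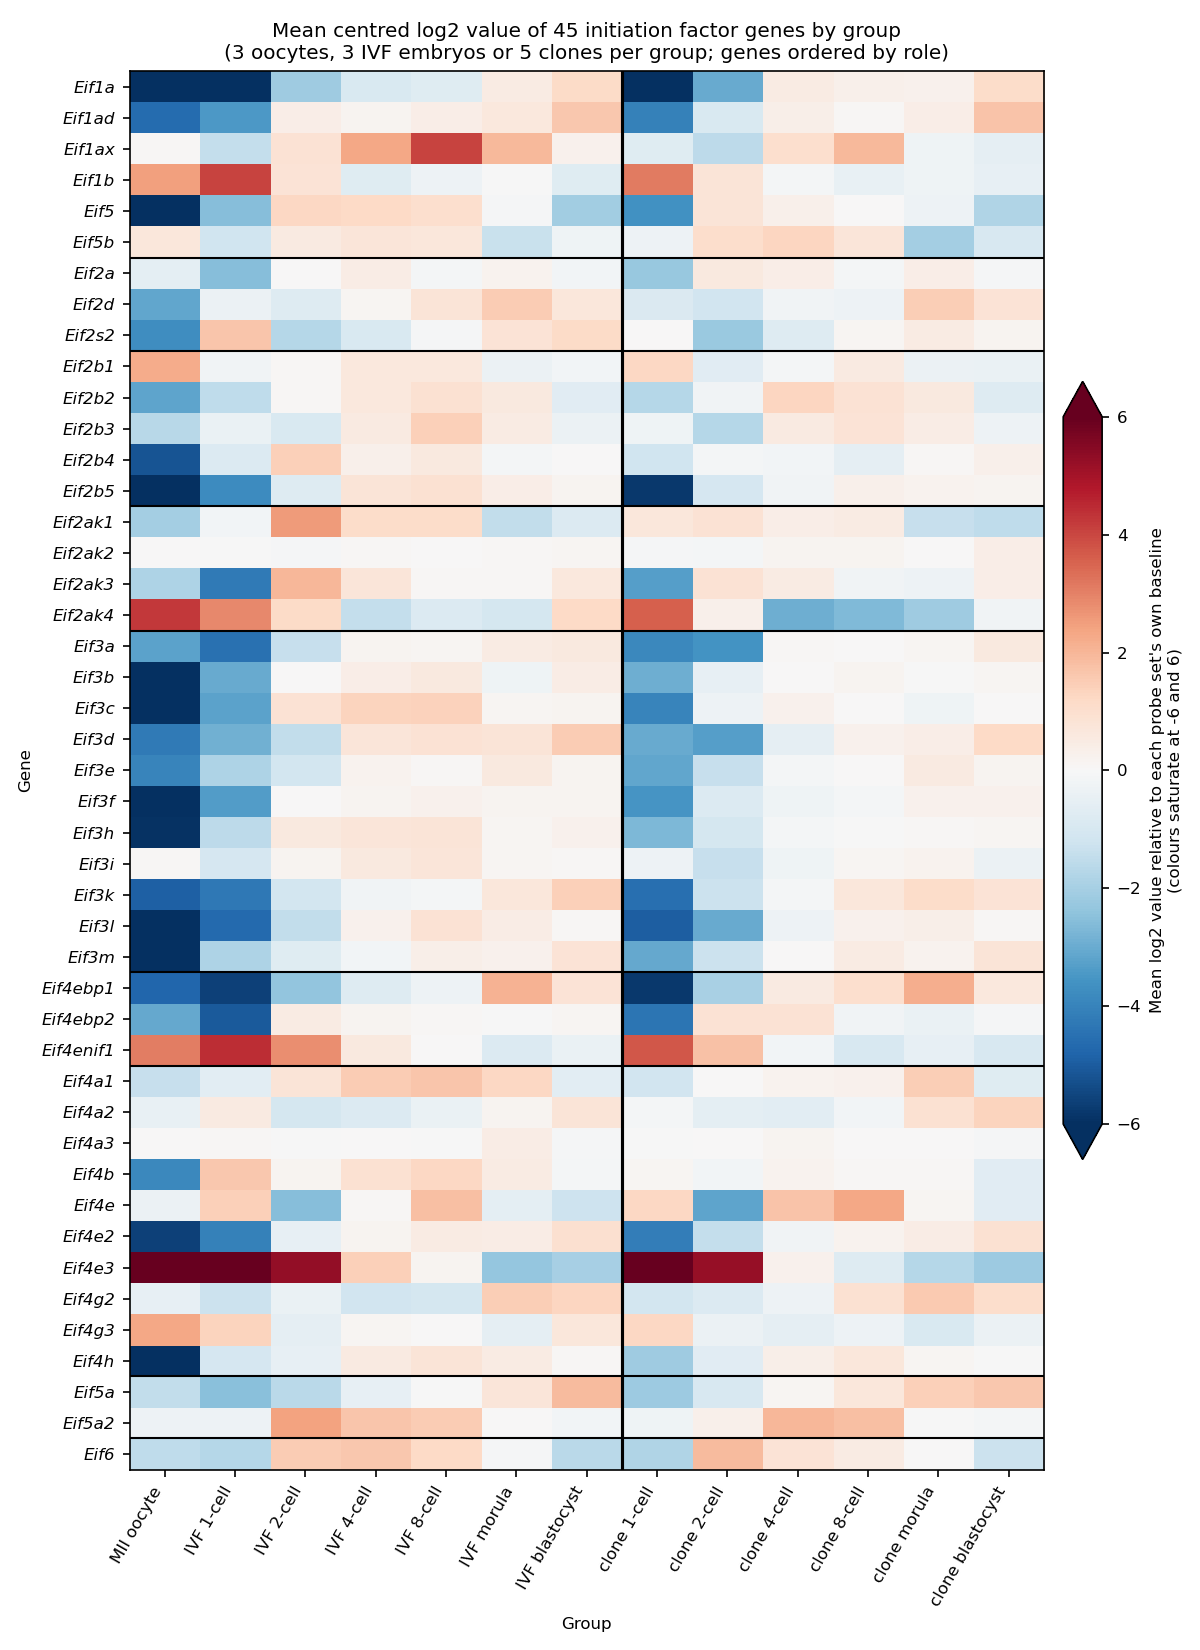
Group means of the 45 initiation factor genes (rows, ordered by role) in MII oocytes and the 6 stages of IVF and cloned embryos (columns); colour is the centred log2 value. The median over genes is lowest in MII oocytes, at -3.05, while Eif4e3 and Eif4enif1 are among the rows that are highest in the oocyte or zygote.

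From MII oocytes to IVF 1-cell embryos 22 of 45 members rose (48.9%, against 14.3% of all genes) and 10 fell (22.2%, against 16.3%), with a median difference of 1.16. Of the 11 Eif3 subunit genes 8 rose and 2 fell, and of the 5 Eif2b subunit genes 4 rose and 1, Eif2b1, fell.

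Eif4h, which stimulates the Eif4a helicase, stood at -6.75, -6.05 and -7.00 in the 3 oocytes and at -1.10, -1.31 and -0.57 in the 3 IVF 1-cell embryos. Eif4b, the related cofactor of that helicase, went from -4.07, -3.60 and -3.99 to 1.43, 1.69 and 1.71. In both genes every zygote was above every oocyte, by 5.61 ± 0.22 (SE) for Eif4h (adjusted p = 2.45e-11) and 5.49 ± 0.25 for Eif4b (adjusted p = 1.53e-10). Both other probe sets of Eif4b also rose, by 2.83 and 1.06.

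Among the Eif3 subunits, Eif3c went from -7.74, -9.31 and -9.23 in oocytes to -2.78, -3.01 and -3.85 in IVF 1-cell embryos, a rise of 5.54 ± 0.35 (adjusted p = 6.64e-09). Its 3 other probe sets were divided: 2 rose, by 3.40 and 3.52, and 1 fell by 2.86. Eif3h stood at -5.29, -5.75 and -6.76 in oocytes and at -1.70, -1.65 and -1.29 in zygotes (4.38 ± 0.25, adjusted p = 1.92e-09), but its 2 other probe sets gave -0.03 and -0.03. Eif2b5, the catalytic subunit of the exchange factor, rose by 4.35 ± 0.24 (adjusted p = 1.66e-09), with -0.02 on its other probe set. In none of these genes did the oocyte and zygote values on the probe set used overlap.

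Factors that fell at fertilisation included Eif2b1, the alpha subunit of the exchange factor, from 2.12, 2.28 and 2.29 in oocytes to 0.00, -0.46 and -0.24 in IVF 1-cell embryos (-2.46 ± 0.30, adjusted p = 9.67e-06). Eif3i, a small subunit of Eif3, fell from 0.00, 0.12 and 0.09 to -0.97, -1.03 and -1.08 (-1.09 ± 0.13, adjusted p = 8.95e-06; -0.44, also called, on its other probe set). Both genes opposed most of their own complex, with no overlap between oocytes and zygotes. Eif2a, an alternative carrier of the initiator tRNA, changed by -1.97 ± 0.26 (adjusted p = 1.9e-05), Eif2ak3, the Eif2 kinase of the endoplasmic reticulum, by -2.41 ± 0.36 (adjusted p = 7.16e-05), and Eif5a, which relieves stalled ribosomes, by -1.04 ± 0.17 (adjusted p = 0.000207).

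The 1-cell to 2-cell step, which spans the main activation of the embryonic genome, moved the most members. In IVF embryos 28 rose (62.2%, against 17.2% of all genes) and 9 fell (20%, against 18.7%), with a median of 1.59. All 11 Eif3 subunit genes rose, from 0.72 ± 0.22 for Eif3e to 4.10 ± 0.35 for Eif3c, and the 1-cell and 2-cell values overlapped only for Eif3m (1.13 ± 0.34). Both Eif5a genes and Eif6, which keeps large ribosomal subunits free, also rose. Of the 10 genes of cap binding and unwinding, in contrast, 2 rose and 5 fell.

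Eif3f, an Eif3 subunit with an MPN domain, went from -3.15, -3.29 and -3.62 in IVF 1-cell embryos to -0.03, 0.05 and 0.06 in 2-cell embryos (3.38 ± 0.23, adjusted p = 7.49e-09). The 2-cell embryos lay close together and far above every zygote. Eif1a, which helps the ribosome scan to the start codon, stood at -7.93, -8.00 and -8.14 and then at -2.74, -2.01 and -1.67 (5.88 ± 0.42, adjusted p = 1.65e-08; 6.57 on its other probe set). Eif2ak3 went from -3.92, -3.99 and -4.81 to 1.81, 1.83 and 2.37 (6.24 ± 0.36, adjusted p = 1.37e-09), with 1.41 and -1.28, both called, on its 2 other probe sets. Eif4ebp2, an inhibitor of Eif4e, rose by 5.57 ± 0.38 (adjusted p = 8.55e-09) and Eif2b5 by 3.03 ± 0.24 (adjusted p = 5.49e-08).

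Eif4e, the cap-binding protein itself, went the other way at this step, from 1.26, 1.81 and 1.20 in IVF 1-cell embryos to -2.93, -2.47 and -2.24 in 2-cell embryos (-3.97 ± 0.37, adjusted p = 2.87e-07). The groups were far apart on this probe set. Its other probe sets were divided: 2 rose, by 1.65 and 1.12, and 1 fell by 1.51. Eif1b, a start codon factor, changed by -3.24 ± 0.27 (adjusted p = 8.86e-08), Eif2s2, the beta subunit of Eif2, by -3.34 ± 0.42 (adjusted p = 7.97e-06), Eif4enif1, which carries Eif4e into the nucleus and represses bound mRNAs, by -1.66 ± 0.23 (adjusted p = 1.91e-05), and the helicase Eif4a2 by -1.60 ± 0.23 (adjusted p = 3.39e-05).

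In the oocyte and IVF series 4 members had their highest mean in MII oocytes (8.9%, against 29.6% of all genes) and 4 in 1-cell embryos (8.9%, against 15.2%). Eif4e3 and Eif4enif1 were among these 8. Eif4e3, a cap-binding relative of Eif4e, stood at 7.69, 7.88 and 7.93 in MII oocytes, 6.27, 6.37 and 6.78 in IVF 1-cell, 5.77, 5.20 and 4.78 in 2-cell and 0.60, 1.58 and 2.11 in 4-cell embryos. It was lower at each of these stages than at the one before, with no overlap, and from the 2-cell to the 4-cell stage it changed by -3.82 ± 0.43 (adjusted p = 1.45e-05; -2.84 on its other probe set). Eif4enif1 peaked in zygotes at 4.44, 4.45 and 4.46 and changed by -2.20 ± 0.23 from the 2-cell to the 4-cell stage (adjusted p = 5.75e-06).

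**Figure D2:**
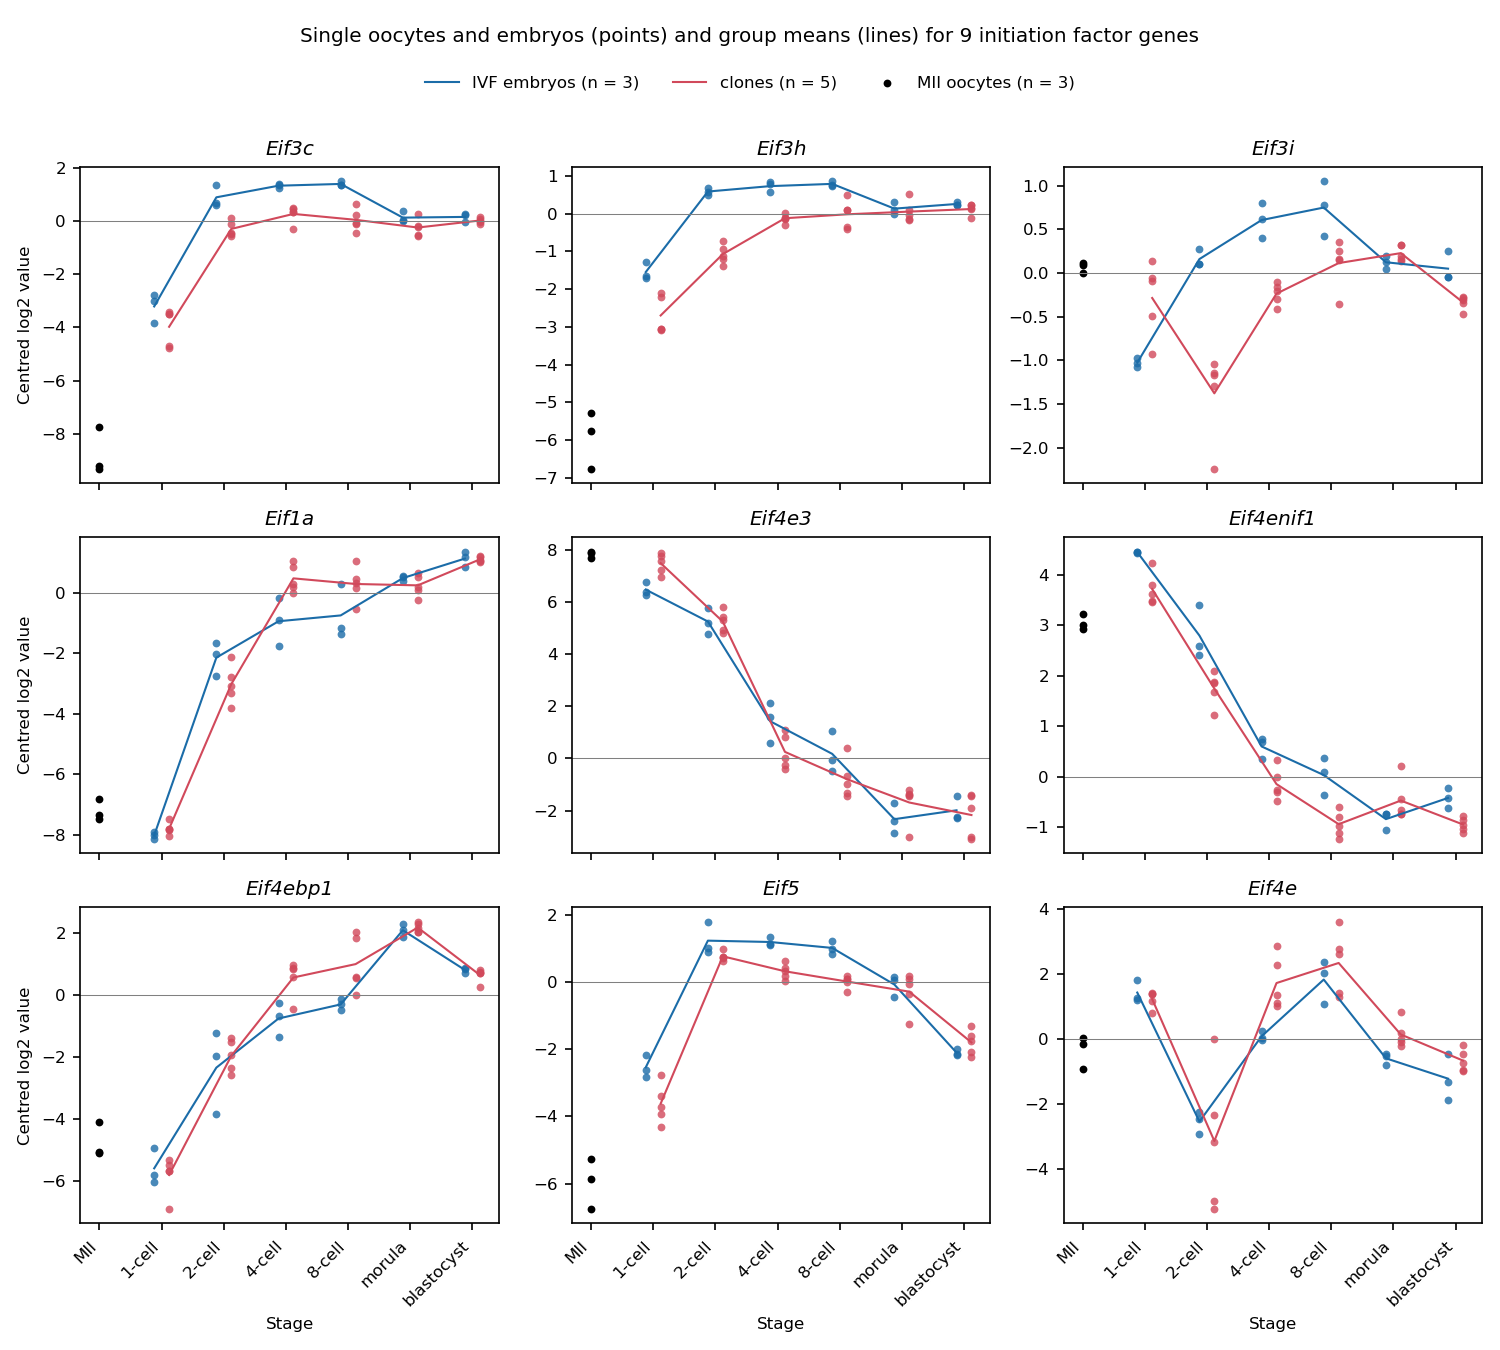
Centred log2 values of 9 initiation factor genes in single embryos (points) and group means (lines) by stage, for the oocyte and IVF series and for clones. Eif3c, Eif3h and Eif5 climb from the oocyte, Eif1a and Eif4ebp1 from the 1-cell stage, Eif4e3 starts between 7.69 and 7.93 in oocytes and falls, and Eif3i lies lower in cloned than in IVF 2-cell embryos.

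From the 2-cell to the 4-cell stage 13 members rose in IVF embryos (28.9%, against 10.5% of all genes) and 6 fell (13.3%, against 13.3%), with a median of 0.44. Those that rose included 5 Eif3 subunits, among them Eif3d, a subunit with its own cap-binding activity (2.19 ± 0.27, adjusted p = 2.96e-05), and Eif3e (1.32 ± 0.22, adjusted p = 0.000358). Eif4e rose by 2.62 ± 0.37 (adjusted p = 8.55e-05), Eif5a by 1.13 ± 0.17 (adjusted p = 0.000199) and Eif2b5 by 1.54 ± 0.24 (adjusted p = 0.000231). Besides Eif4e3 and Eif4enif1, the falling members were led by Eif1b (-1.56 ± 0.27, adjusted p = 0.000521), Eif2ak4, the kinase that senses amino acid shortage (-2.61 ± 0.47, adjusted p = 0.000675), and Eif2ak3 (-1.27 ± 0.36, adjusted p = 0.0175).

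Between the 4-cell and 8-cell stages 1 member, Eif4e, rose in IVF embryos (1.75 ± 0.37, adjusted p = 0.025; 2.2% of members, against 1.23% of all genes), and 0 fell, against 0.759%. By unadjusted p under 0.05, 7 of the 45 members differed, against 2519 of the 18193 genes. At the next step, to the morula, 5 members rose (11.1%, against 7.09%) and 9 fell (20%, against 10.1%). Eif4ebp1, the inhibitor of Eif4e that mTOR switches off, went from -0.50, -0.30 and -0.12 in 8-cell embryos to 2.10, 1.86 and 2.28 in morulae (2.39 ± 0.50, adjusted p = 0.00341), and its other probe sets gave 1.68, also called, and 0.17. Over the same step Eif4e went from 2.02, 2.37 and 1.08 to -0.53, -0.80 and -0.47 (-2.43 ± 0.37, adjusted p = 0.00023), and its probe sets at -1.86 and -1.66 also fell. In both genes the 8-cell and morula values were apart.

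The others that rose to the morula were Eif4g2, an Eif4g relative that does not bind Eif4e (2.53 ± 0.42, adjusted p = 0.000556), Eif5a (0.77 ± 0.17, adjusted p = 0.00562), Eif4a3, the helicase of the exon junction complex (0.44 ± 0.13, adjusted p = 0.0273), and Eif2d, which can deliver tRNA without GTP (0.79 ± 0.25, adjusted p = 0.0404). The Eif4a3 values overlapped, the call was lost in 5 of 6 fits without 1 embryo, and the probe set that carries both the Gm5576 and Eif4a3 symbols went from 0.85 to -0.42. Those that fell furthest past the threshold, besides Eif4e, were Eif4e3 (-2.50 ± 0.43, adjusted p = 0.000756), Eif3i (-0.63 ± 0.13, adjusted p = 0.00368), Eif5b, which joins the large subunit (-1.98 ± 0.43, adjusted p = 0.00406), and Eif4enif1 (-0.87 ± 0.23, adjusted p = 0.0135).

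At the morula to blastocyst step 3 members rose in IVF embryos (6.67%, against 12.6% of all genes) and 6 fell (13.3%, against 10.1%), both close to or below the background. Eif5, which triggers GTP hydrolysis at the start codon, went from -0.45, 0.15 and 0.07 in morulae to -2.01, -2.17 and -2.13 in blastocysts (-2.02 ± 0.31, adjusted p = 0.000257). All 4 of its other probe sets also fell, by between 1.44 and 2.15. Eif5a went from 0.63, 0.91 and 0.68 to 1.96, 1.68 and 2.07 (1.17 ± 0.17, adjusted p = 0.000189), with every blastocyst above every morula. Eif2ak4 (2.25 ± 0.47, adjusted p = 0.00279) and Eif4g3, a scaffold relative (1.20 ± 0.39, adjusted p = 0.0384), also rose. Eif4a1, the main cytoplasmic helicase (-1.87 ± 0.30, adjusted p = 0.000321), Eif2b2 (-1.30 ± 0.32, adjusted p = 0.00871), Eif4a3 (-0.51 ± 0.13, adjusted p = 0.00969) and Eif2d (-0.86 ± 0.25, adjusted p = 0.0217) fell. Eif4a3 stood at 0.66, -0.02 and 0.67 in morulae and at -0.02, -0.10 and -0.10 in blastocysts. The probe set with both the Gm5576 and Eif4a3 symbols went from -0.42 to 0.18.

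**Figure D3:**
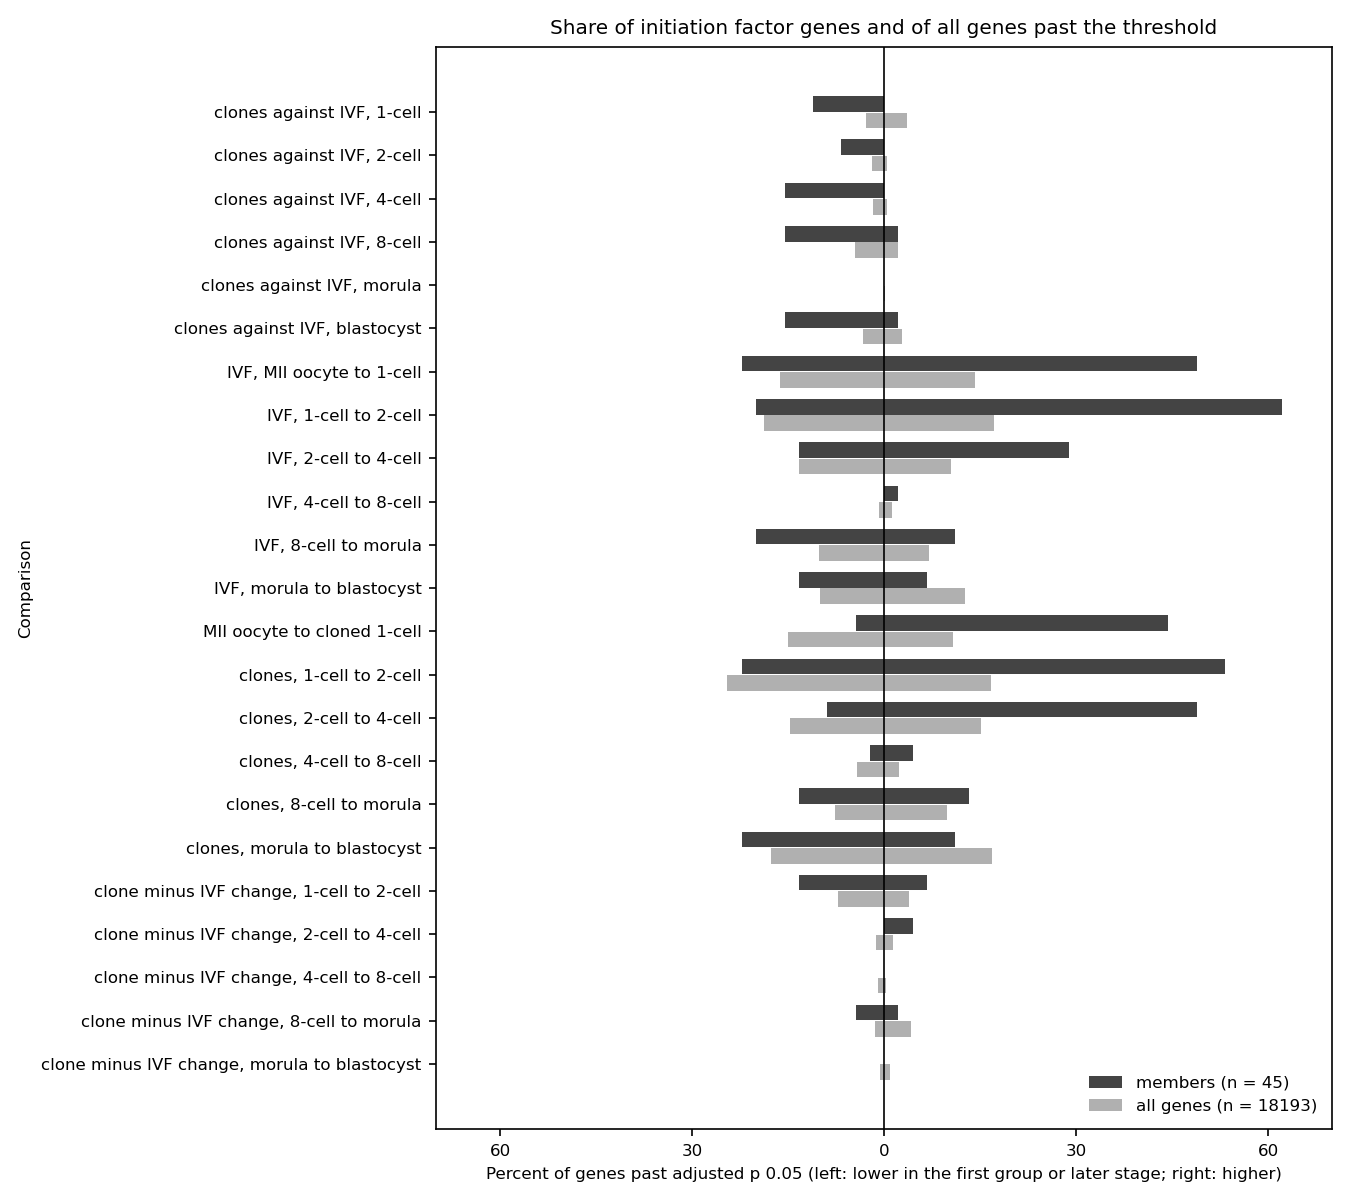
Percent of the 45 initiation factor genes and of all 18193 genes that passed an adjusted p of 0.05 in each of 23 comparisons, lower on the left and higher on the right. The widest gap is at the IVF 1-cell to 2-cell step, where 62.2% of members rose, against 17.2%, followed by the same step in clones with 53.3% against 16.7%.

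In clones, too, the early steps moved the most members. From MII oocytes to cloned 1-cell embryos 20 members rose (44.4%, against 10.8% of all genes) and 2 fell (4.44%, against 15.0%), with a median of 0.56; the oocytes are the same 3 as in the IVF comparison. Eif4b (4.01 ± 0.23, adjusted p = 0.000108), Eif4h (4.47 ± 0.36, adjusted p = 0.000339), Eif2s2 (3.74 ± 0.32, adjusted p = 0.000414), Eif3f (3.00 ± 0.30, adjusted p = 0.000788) and Eif3c (4.78 ± 0.52, adjusted p = 0.00115) led those that rose. The 2 that fell were Eif4g3 (-1.09 ± 0.17, adjusted p = 0.00434) and Eif2a (-1.69 ± 0.46, adjusted p = 0.0366).

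From the 1-cell to the 2-cell stage 24 members rose in clones (53.3%, against 16.7% of all genes) and 10 fell (22.2%, against 24.6%). Of the 11 Eif3 subunit genes 8 rose and 1, Eif3i, fell. Eif3f (2.70 ± 0.13, adjusted p = 1.05e-15), Eif5 (4.39 ± 0.24, adjusted p = 2.55e-14), Eif1a (4.78 ± 0.26, adjusted p = 2.77e-14), Eif3k (3.27 ± 0.21, adjusted p = 4.76e-13) and Eif3c (3.68 ± 0.25, adjusted p = 1.4e-12) rose most clearly. All 3 other probe sets of Eif3c rose too, whereas those of Eif5 gave 3.22 and -1.09, both called, and -0.30 and 0.56. Eif4enif1 (-1.97 ± 0.19, adjusted p = 1.69e-09), Eif2b1 (-1.94 ± 0.23, adjusted p = 7.76e-08), Eif1b (-2.34 ± 0.32, adjusted p = 7.52e-07), Eif4e (-4.37 ± 0.65, adjusted p = 2.64e-06) and Eif2s2 (-2.24 ± 0.37, adjusted p = 1.38e-05) led those that fell. Other probe sets of the last 2 pointed upward, at 1.96 and 2.12 for Eif4e and 1.28, 1.75 and 0.66 for Eif2s2.

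The change at this step was itself compared between clones and IVF embryos. The signed difference, clone change minus IVF change, was above 0 for 3 members (6.67%, against 3.96% of all genes) and below 0 for 6 (13.3%, against 7.24%). Eif3i had the smallest p: cloned 1-cell embryos stood at -0.09, 0.14, -0.06, -0.49 and -0.93 and cloned 2-cell embryos at -1.15, -1.17, -1.04, -2.24 and -1.29, so it fell by 1.09 in clones while it rose by 1.19 in IVF embryos. The difference of the changes was -2.28 ± 0.26 (adjusted p = 4.87e-08), and the other probe set gave -1.41, also called.

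Eif2b1 stood at 1.63, 1.74, 1.60, 0.61 and 0.66 in cloned 1-cell embryos, clones 4 and 5 being the low ones, and at -0.62, -0.44, -0.74, -1.15 and -0.51 in cloned 2-cell embryos. It therefore changed by -1.94 in clones and by 0.30 in IVF embryos (difference -2.24 ± 0.38, adjusted p = 5.51e-05), where it had fallen by 2.46 at the step before. Eif3a, the scaffold subunit of Eif3, changed by 0.33 in clones and by 3.07 in IVF embryos (-2.75 ± 0.55, adjusted p = 4.25e-04), and Eif3d by -0.32 and 1.44 (-1.76 ± 0.44, adjusted p = 0.00495). Eif1ax, the X-linked partner of Eif1a, changed by -0.83 in clones and by 2.27 in IVF embryos (-3.10 ± 1.01, adjusted p = 0.0374), a call that was lost in 9 of 16 fits without 1 embryo. The rise was steeper in clones for Eif2b5 (4.77 against 3.03; 1.74 ± 0.46, adjusted p = 0.00815) and Eif3e (1.70 against 0.72; 0.98 ± 0.24, adjusted p = 0.00361), although the 3 other probe sets of Eif3e pointed the opposite way at -0.12, -0.45 and -1.09. Eif4b changed less in clones (-0.28 against -1.42; 1.14 ± 0.33, adjusted p = 0.0154), a call lost without IVF 2-cell replicate 1.

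At the 2-cell to 4-cell step more members were called as rising in clones than the 13 in IVF embryos. Clones had 5 embryos a stage and IVF embryos 3, so these counts are not directly comparable. In clones 22 rose (48.9%, against 15.1% of all genes) and 4 fell (8.89%, against 14.7%). Of the 11 Eif3 subunits 9 rose and none fell by limma (9 were called in all). Eif1a (3.50 ± 0.26, adjusted p = 1.04e-10), Eif3l (2.72 ± 0.23, adjusted p = 8.91e-10), Eif3a (3.64 ± 0.32, adjusted p = 1.35e-09), Eif3e (1.26 ± 0.13, adjusted p = 1.55e-08) and Eif3d (2.80 ± 0.30, adjusted p = 3.57e-08) led them. Eif4e3 (-4.99 ± 0.40, adjusted p = 3.35e-10), Eif4enif1 (-1.89 ± 0.19, adjusted p = 1.52e-08), Eif2ak4 (-3.22 ± 0.61, adjusted p = 0.000166) and Eif1b (-0.88 ± 0.32, adjusted p = 0.0392) fell.

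At this step the signed difference was above 0 for 2 members (4.44%, against 1.45% of all genes) and below 0 for 0 (against 1.19%). An unadjusted p under 0.05 in either direction was reached by 10 of the 45 members, against 2412 of the 18193 genes. Eif3a stood at -2.68, -4.40, -3.42, -2.51 and -4.83 in cloned 2-cell embryos and at 0.01, 0.22, 0.02, 0.15 and 0.00 in cloned 4-cell embryos, every 4-cell clone being above every 2-cell clone. It rose by 3.64 in clones and changed by 1.55 in IVF embryos (difference 2.09 ± 0.55, adjusted p = 0.025, lost in 4 of 16 fits without 1 embryo). Eif1a went from -2.12, -2.78, -3.09, -3.81 and -3.30 to 0.00, 0.85, 0.31, 0.19 and 1.07 in clones, again without overlap (difference 2.30 ± 0.48, adjusted p = 0.00375).

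Later steps moved fewer members in clones. From the 4-cell to the 8-cell stage 2 rose (4.44%, against 2.33%), Eif3k (0.81 ± 0.21, adjusted p = 0.0158) and Eif4g2 (1.23 ± 0.36, adjusted p = 0.0398), and 1 fell (2.22%, against 4.17%), Eif4enif1 (-0.79 ± 0.19, adjusted p = 0.00969). From the 8-cell stage to the morula 6 rose (13.3%, against 9.81%) and 6 fell (13.3%, against 7.61%). Eif2d (1.75 ± 0.25, adjusted p = 1.28e-05), Eif4a2 (1.10 ± 0.28, adjusted p = 0.00755), Eif3e (0.48 ± 0.13, adjusted p = 0.00949), Eif4a1 (1.22 ± 0.35, adjusted p = 0.0174) and Eif4ebp1 (1.18 ± 0.34, adjusted p = 0.018) led upward. Eif5b (-2.77 ± 0.47, adjusted p = 0.000121), the heme-sensing kinase Eif2ak1 (-1.88 ± 0.36, adjusted p = 0.000478), Eif5a2 (-1.82 ± 0.44, adjusted p = 0.00462), Eif2b1 (-0.93 ± 0.23, adjusted p = 0.00587) and Eif1ax (-2.18 ± 0.58, adjusted p = 0.00921) led downward. Without the library labelled 8-cell clone replicate 4, the calls of Eif4g2 at the first of these steps (adjusted p = 0.0549) and Eif4a1 at the second (adjusted p = 0.0575) were lost. Over all 10 fits without 1 embryo they were lost in 6 and in 2.

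From morula to blastocyst 5 members rose in clones (11.1%, against 16.9%) and 10 fell (22.2%, against 17.6%). Eif2b2 (-1.36 ± 0.17, adjusted p = 1.14e-06), Eif5 (-1.51 ± 0.24, adjusted p = 2.73e-05), Eif4a1 (-2.21 ± 0.35, adjusted p = 3e-05), Eif4ebp1 (-1.53 ± 0.34, adjusted p = 0.00133) and Eif4b (-0.71 ± 0.20, adjusted p = 0.00853) fell most clearly. Those that rose were Eif1ad (1.32 ± 0.35, adjusted p = 0.0054), Eif1a (0.86 ± 0.26, adjusted p = 0.014), Eif2ak4 (1.92 ± 0.61, adjusted p = 0.0168), Eif3d (0.82 ± 0.30, adjusted p = 0.0348) and Eif2ak2, the kinase that responds to double-stranded RNA (0.37 ± 0.13, adjusted p = 0.0355). Eif2ak2 stood at 0.99, 0.75, 0.28, -0.07 and 0.01 in cloned blastocysts, overlapping the cloned morulae at -0.06 to 0.13.

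Few of these later changes differed between clones and IVF embryos by the test of the difference. From the 4-cell to the 8-cell stage 0 members differed, against 0.286% of all genes with a signed difference above 0 and 1.03% below. By unadjusted p under 0.05 it was 1 of the 45 members, against 2079 of the 18193 genes. From morula to blastocyst 0 differed, against 0.984% and 0.638%. By unadjusted p it was 4 members, against 1784 genes. To the morula, the signed difference was above 0 for 1 member (2.22%, against 4.28%) and below 0 for 2 (4.44%, against 1.38%). Eif4enif1 changed by 0.47 in clones and by -0.87 in IVF embryos (1.34 ± 0.30, adjusted p = 0.00469), Eif4a3 by -0.02 and 0.44 (-0.46 ± 0.13, adjusted p = 0.0243) and Eif4g2 by 0.66 and 2.53 (-1.87 ± 0.58, adjusted p = 0.0463). The call of Eif4g2 was lost in 12 of 16 fits without 1 embryo and stood at an adjusted p of 0.0505 without the library labelled 8-cell clone replicate 4. That of Eif4a3 was lost in 2. The probe set with both the Gm5576 and Eif4a3 symbols went from 0.25 to 0.01 in clones and from 0.85 to -0.42 in IVF embryos.

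Within a stage, 29 of the 31 calls were lower in clones, a split that at the 1-cell stage depended on 2 of the clones. Several members were called at more than 1 stage, so the 31 calls are not independent. Among all genes 508 were called lower and 640 higher at the 1-cell stage. The same counts were 339 and 93 at the 2-cell, 328 and 84 at the 4-cell and 813 and 391 at the 8-cell stage. In morulae they were 16 and 14, and in blastocysts 608 and 517. The hybridisation control probe sets on the same arrays also differed, by -1.02 (clones minus IVF) at the 1-cell, 1.27 at the 2-cell, 1.30 at the 4-cell, 0.828 at the 8-cell, 0.342 at the morula and -0.225 at the blastocyst stage. The first 4 differences had adjusted exact two-sided permutation p of 0.0536, with 56 arrangements a stage. Their part in the calls was not tested beyond a fit that held them as a covariate, which is given beside each stage. At the first 4 stages the control values of clones and IVF embryos did not overlap. The covariate there largely follows the group, so a call lost or kept with it cannot be assigned to either. The embryos are the same as in the steps above, so the stage comparisons are not independent of them, and the 1-cell comparison is also the test of whether the step from the oocyte differed.

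At the 1-cell stage 5 members were lower in clones (11.1%, against 2.79% of all genes) and 0 higher (against 3.52%). An unadjusted p under 0.05 was reached by 14 of the 45 members, against 3318 of the 18193 genes. Eif2s2, the beta subunit of Eif2, stood at -0.28, -0.03, 0.44, 0.02 and -0.13 in clones and at 1.54, 1.69 and 1.69 in IVF embryos (-1.64 ± 0.16, adjusted p = 0.0043). Eif4b stood at -0.37, 0.13, -0.10, 0.48 and 0.49 and at 1.43, 1.69 and 1.71 (-1.48 ± 0.22, adjusted p = 0.0143). Clones lay below every IVF embryo in both. With the controls as covariate, these 2 kept their calls, at -1.76 (adjusted p = 0.0283) and -1.0 (adjusted p = 0.0446). One other probe set of Eif2s2 was also lower (-1.16) and 1 was higher (0.76), both called.

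Eif1b, at 2.76, 2.86, 3.26, 3.37 and 3.24 against 4.02, 4.19 and 4.00 (-0.97 ± 0.16, adjusted p = 0.0196), Eif3e (-1.27 ± 0.26, adjusted p = 0.0369) and Eif4a2 (-0.65 ± 0.13, adjusted p = 0.0377) completed the 1-cell group. Leaving out 1 embryo at a time ended the call in 0 of 8 fits for Eif2s2, in 2 for Eif4b (IVF replicates 2 and 3), in 3 for Eif1b (each IVF replicate), in 6 for Eif3e and in 7 for Eif4a2. With the controls as covariate the last 3 were not called, at -0.75, -1.18 and -0.54. Of the 8 oocyte genes 2 were higher in 1-cell clones (median level 6.07 against 5.74) and of the 4 genes of the 2-cell stage 1 was lower (0.56 against 3.44), and their part in the result was not tested.

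The split of the 1-cell calls depended on cloned replicates 4 and 5. Without them 6 members were called, 3 lower and 3 higher in clones. The lower ones were Eif4b (-1.72, adjusted p = 0.0152), Eif2s2 (-1.60, adjusted p = 0.0287) and Eif1b (-1.11, adjusted p = 0.0334). The higher ones were Eif2b1 (1.89, adjusted p = 0.00989), Eif3i (1.02, adjusted p = 0.0102) and Eif4e3 (1.28, adjusted p = 0.0298), which over all 5 clones stood at 1.48 (adjusted p = 0.0529), 0.74 (adjusted p = 0.16) and 1.02 (adjusted p = 0.0643). At the 1-cell to 2-cell step the differences of the changes of Eif3i (-2.56, adjusted p = 5.27e-10) and Eif2b1 (-2.65, adjusted p = 1.6e-06) kept their calls without them.

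Among 2-cell embryos 3 members were lower in clones (6.67%, against 1.86% of all genes), all of them Eif3 subunits, and 0 higher (against 0.511%). 16 of the 45 members had an unadjusted p under 0.05, against 2717 of the 18193 genes. Of the 45 estimates 36 were below 0, with a median of -0.54. Among all genes 8482 of 18193 were below 0. Eif3h, a subunit that budding yeast lacks, stood at -0.94, -0.71, -1.13, -1.38 and -1.19 in clones and at 0.50, 0.59 and 0.68 in IVF embryos (-1.66 ± 0.15, adjusted p = 0.00677). Eif3f stood at -0.61, -1.04, -0.66, -0.94 and -0.93 against -0.03, 0.05 and 0.06 (-0.86 ± 0.11, adjusted p = 0.0179). Eif3i stood at -1.15, -1.17, -1.04, -2.24 and -1.29 against 0.28, 0.10 and 0.10 (-1.54 ± 0.28, adjusted p = 0.0479). Every clone lay below every IVF embryo in all 3 genes.

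The other probe set of Eif3i was lower too (-1.27, adjusted p = 0.016), whereas those of Eif3h gave 0.01 and 0.01. With the controls as covariate none of the 3 was called by limma, while the differences were -1.39 for Eif3h, -0.82 for Eif3f and -2.35 for Eif3i. Without 1 embryo the call of Eif3h held in all 8 fits, that of Eif3f was lost in 2 (IVF replicates 2 and 3) and that of Eif3i in 7.

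The 4-cell comparison had 7 members lower in clones (15.6%, against 1.8% of all genes) and 0 higher (against 0.462%). Among the 7 were 4 Eif3 subunits. An unadjusted p under 0.05 was reached by 21 of the 45 members, against 2541 of the 18193 genes. Eif3d stood at -0.39, -0.71, -0.35, -0.45 and -0.70 in clones and at 0.53, 0.75 and 0.90 in IVF embryos (-1.25 ± 0.12, adjusted p = 0.00779), and Eif3h at -0.29, -0.13, 0.03, -0.10 and -0.10 against 0.78, 0.84 and 0.58 (-0.85 ± 0.09, adjusted p = 0.0087). Eif3i stood at -0.16, -0.30, -0.41, -0.21 and -0.10 against 0.40, 0.62 and 0.80 (-0.84 ± 0.11, adjusted p = 0.0151), with -0.48 (adjusted p = 0.0434) on its other probe set. The groups did not overlap in any of the 3, and the spread within each was small beside the gap.

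Eif4a1 stood at -0.14, -0.13, 0.48, 0.52 and 0.33 in 4-cell clones and at 1.46, 1.69 and 1.44 in IVF embryos (-1.32 ± 0.19, adjusted p = 0.0235), and 1 of its other probe sets was also lower (-1.11, adjusted p = 0.0466). Eif5 (-0.87 ± 0.14, adjusted p = 0.0292), Eif3c (-1.06 ± 0.19, adjusted p = 0.0424) and Eif2b5 (-1.02 ± 0.18, adjusted p = 0.043) were the others. Calls of Eif3d and Eif3h held in all 8 fits without 1 embryo, that of Eif3i was lost without IVF replicate 2, that of Eif4a1 without each IVF replicate, that of Eif5 in 6 fits and those of Eif3c and Eif2b5 in 7. None was called with the controls as covariate by limma. The differences were then -0.65 for Eif3d, -0.31 for Eif3c, -0.01 for Eif2b5, -0.61 for Eif3i, -0.64 for Eif5, -1.19 for Eif3h and -2.2 for Eif4a1. At this stage the 3′ minus 5′ signal of Gapdh, a sign of RNA quality, was 1.64 higher in clones (adjusted exact permutation p = 0.0537). The 4 genes of the 2-cell stage had a median level of 0.48 in 4-cell clones and 5.24 in IVF embryos, with 2 of the 4 called, and their part in the result was not tested.

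In 8-cell embryos 7 members were lower in clones (15.6%, against 4.47% of all genes) and 1 higher (2.22%, against 2.15%). Eif5 stood at 0.09, 0.17, 0.00, 0.09 and -0.29 in clones and at 0.97, 1.23 and 0.84 in IVF embryos (-1.0 ± 0.13, adjusted p = 0.0119), although 1 of its other probe sets was higher in clones (0.90, adjusted p = 0.0151). Eif3l stood at 0.15, 0.15, 0.31, 0.38 and 0.30 against 0.89, 0.96 and 0.69 (-0.59 ± 0.08, adjusted p = 0.015). Eif3c stood at 0.24, 0.62, -0.11, -0.08 and -0.45 against 1.34, 1.49 and 1.35 (-1.35 ± 0.23, adjusted p = 0.0258; -0.40, also called, on 1 other probe set). In each of the 3, all clones lay below all IVF embryos.

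Eif4g2 was the exception, at 1.05, 0.87, 0.52, 0.81 and 1.36 in 8-cell clones and -0.47, -0.89 and -1.80 in IVF embryos (1.98 ± 0.32, adjusted p = 0.0231). Its clones were all above its IVF embryos, but its 4 other probe sets gave between -0.64 and 0.15. Eif4b (-1.19 ± 0.21, adjusted p = 0.03), Eif2b5 (-0.60 ± 0.12, adjusted p = 0.0384), Eif4a1 (-1.42 ± 0.29, adjusted p = 0.0413) and Eif4enif1 (-0.97 ± 0.21, adjusted p = 0.0453) were also lower in clones. Without the library labelled 8-cell clone replicate 4, Eif5, Eif3l, Eif4a1 and Eif4g2 were still called (adjusted p between 0.0216 and 0.0434), and Eif3c (adjusted p = 0.0511), Eif4b, Eif2b5 and Eif4enif1 were not. Over all 8 fits without 1 embryo the call of Eif5 held in each, those of Eif3l and Eif4g2 were lost in 1 (IVF replicates 1 and 2) and the remaining 5 in between 5 and 7, and none was called with the controls as covariate by limma. The differences with the covariate were -0.83 for Eif5, -0.75 for Eif3l, 2.09 for Eif4g2, -0.85 for Eif3c, -1.13 for Eif4b, -0.49 for Eif2b5, -0.54 for Eif4a1 and -0.75 for Eif4enif1. Of the 4 genes of the 2-cell stage 3 were lower in 8-cell clones (median -0.12 against 3.95), as were 3 of the 8 oocyte genes, which was not tested as a part of the result.

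**Figure D4:**
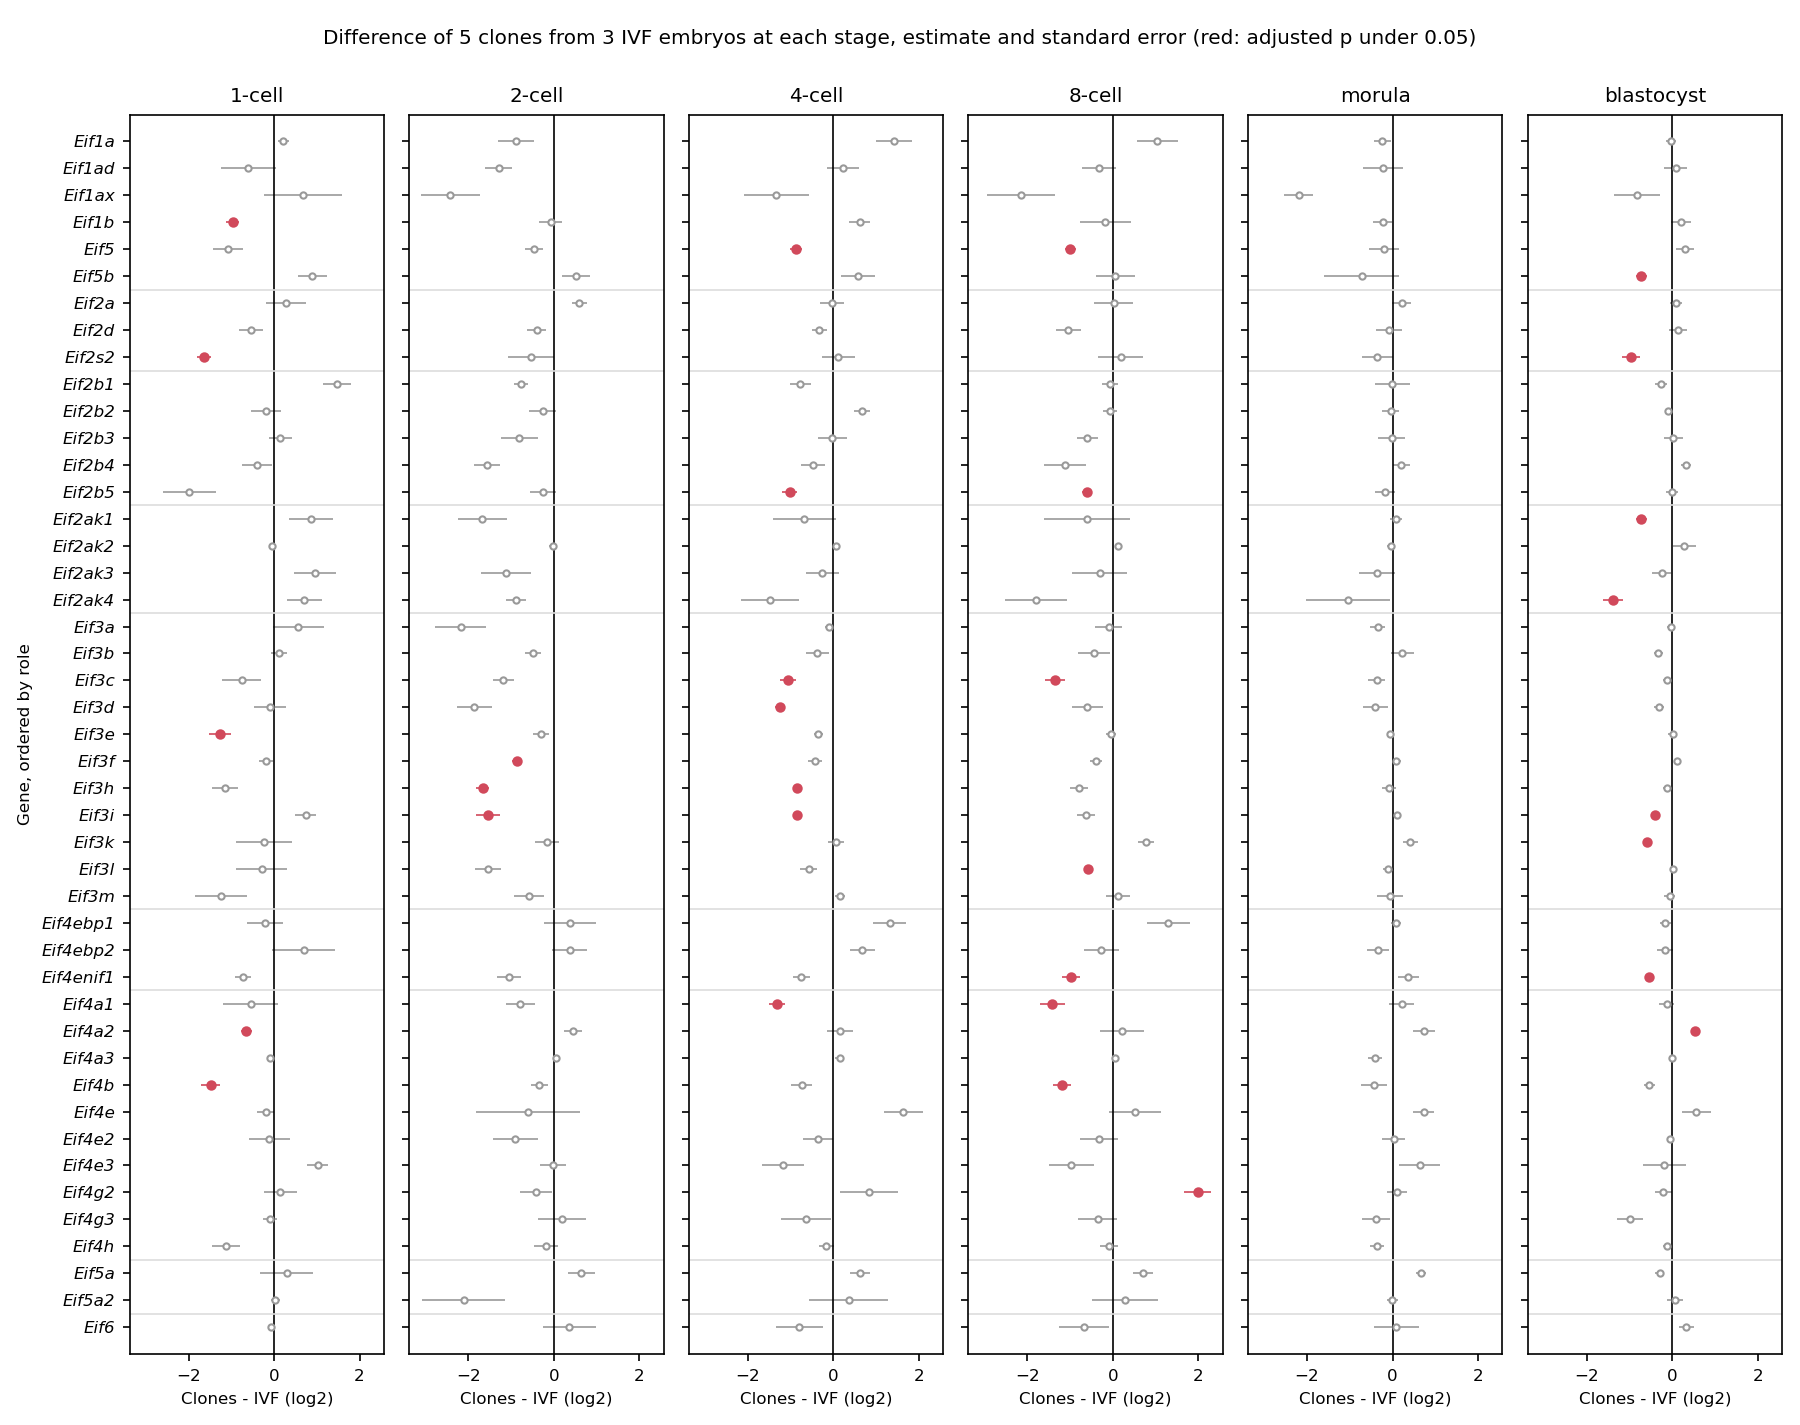
Clones minus IVF embryos at each of 6 stages for the 45 initiation factor genes (log2 difference; points are estimates, bars are SE, red marks an adjusted p under 0.05). Red points lie left of 0 except Eif4g2 at the 8-cell and Eif4a2 at the blastocyst stage, and the morula panel has none.

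Morulae showed 0 members higher and 0 lower in clones by limma (against 0.077% and 0.0879% of all genes). An unadjusted p of 0.05 was passed by 6 of the 45 members, against 1820 of the 18193 genes. In the fit over all 51 arrays 1 member was called. In blastocysts 7 members were lower in clones (15.6%, against 3.34% of all genes) and 1 higher (2.22%, against 2.84%). None of these blastocyst calls was kept in the fit over all 51 arrays. Eif3k, a small Eif3 subunit, stood at 1.01, 0.74, 0.88, 0.76 and 0.76 in clones and at 1.48, 1.45 and 1.38 in IVF embryos (-0.60 ± 0.07, adjusted p = 0.0084). Eif5b stood at -0.88, -0.88, -0.82, -0.98 and -1.34 against -0.23, -0.24 and -0.31 (-0.72 ± 0.12, adjusted p = 0.0222), and Eif2ak4 at -0.54, -0.08, 0.15, -0.71 and 0.17 against 0.96, 1.13 and 1.43 (-1.38 ± 0.24, adjusted p = 0.0268). Clones were below IVF embryos without overlap in all 3.

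Eif4a2, a helicase close to Eif4a1, was higher, at 1.32, 1.26, 1.42, 1.45 and 1.15 in cloned blastocysts against 0.94, 0.84 and 0.55 (0.54 ± 0.11, adjusted p = 0.0353). Eif2ak1 (-0.72 ± 0.13, adjusted p = 0.0254), Eif4enif1 (-0.53 ± 0.11, adjusted p = 0.0416), Eif3i (-0.39 ± 0.08, adjusted p = 0.0439) and Eif2s2 (-0.97 ± 0.21, adjusted p = 0.044) were lower. With the controls as covariate Eif3k (-0.54, adjusted p = 0.039) and Eif4a2 (0.71, adjusted p = 0.0229) kept their calls, and the others were not called, at -0.68 for Eif5b, -0.74 for Eif2ak1, -1.60 for Eif2ak4, -0.54 for Eif4enif1, -0.28 for Eif3i and -0.91 for Eif2s2. The call of Eif3k held in all 8 fits without 1 embryo, those of Eif5b, Eif2ak1 and Eif2ak4 were lost in 4 each and the remaining 4 in between 6 and 8. The Gapdh 3′ minus 5′ signal was 1.11 higher in clones at this stage (adjusted exact permutation p = 0.0537).

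The 7 members followed at every stage were called at none of them by limma. Eif1ax had the largest of these differences, -2.20 ± 0.35 in morulae (adjusted p = 0.0783, with no overlap), -2.42 ± 0.69 in 2-cell (adjusted p = 0.15) and -2.15 ± 0.79 in 8-cell embryos (adjusted p = 0.139). Eif1ax is X-linked, and the labels give no sex for the IVF embryos. In IVF morulae 1, 2 and 3 the Y-linked Eif2s3y stood at 1.07, -5.49 and 1.77, and Eif1ax at 2.16, 2.43 and 1.28. Cloned morulae had Eif1ax between -0.71 and 0.34, and the part of sex was not tested. Eif3a gave -2.18 ± 0.60 at the 2-cell stage (adjusted p = 0.142), Eif4e 1.64 ± 0.46 (adjusted p = 0.154), Eif1a 1.42 ± 0.41 (adjusted p = 0.165) and Eif4ebp1 1.32 ± 0.39 (adjusted p = 0.175) at the 4-cell stage. Eif6 differed by at most 0.80 ± 0.55 in size, lower in 4-cell clones.

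How far a call can be read as the gene's depends on the probe set. Members called between clones and IVF embryos had 58 values on other probe sets of the same genes, of which 6 were called in the same direction, 23 pointed that way without a call, 27 pointed the opposite way without a call and 2 were called in the opposite direction. The 6 were of Eif2s2 at the 1-cell, Eif3i at the 2-cell and 4-cell, Eif4a1 and Eif5 at the 4-cell and Eif3c at the 8-cell stage, while the calls of Eif3h rested on 1 of its 3 probe sets. For the IVF steps the same counts were 36, 25, 22 and 5, and for the clone steps 26, 26, 11 and 8.

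**Figure D5:**
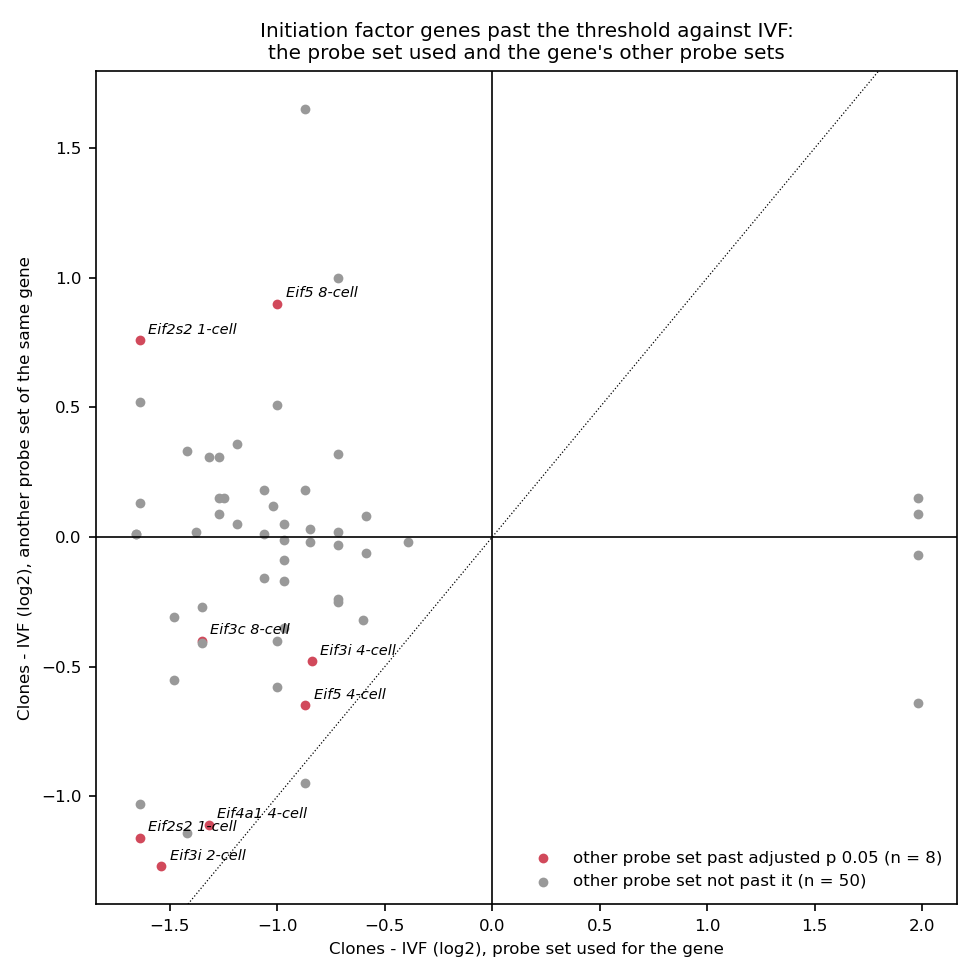
Difference between clones and IVF embryos on the probe set used (x axis) and on each other probe set of the same called gene (y axis), both in log2 units; red points are other probe sets that were called themselves. Of 58 points 8 are red, 6 of them with the same sign on both axes.

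Other genes of the translation machinery were counted from 6 lists. At the oocyte to IVF 1-cell step, 7 of 10 elongation factor and hypusine genes rose (70%, against 14.3% of all genes) and none fell by limma (7 had an unadjusted p under 0.05; 16.3% of all genes fell), with Eef1a1, which carries tRNA to the ribosome, at 5.95 ± 0.25 (adjusted p = 6.11e-11) and Eef2, the translocase, at 3.74 ± 0.23 (adjusted p = 4.27e-09). In cloned 1-cell embryos 5 of these 10 were higher than in oocytes (against 10.8% of all genes). From the 1-cell to the 2-cell stage in IVF embryos, 9 of 17 cap complex and poly(A) binding genes rose and 5 fell, 9 of 15 genes of scanning helicases, recycling and release rose and 3 fell, and 9 of 17 genes of cytoplasmic polyadenylation and masking fell and 3 rose, where 17.2% of all genes rose and 18.7% fell. Larp1, which binds mRNAs of ribosomal proteins, led the first (7.50 ± 0.27, adjusted p = 8.22e-12), Bzw1, an Eif5 mimic, the second (6.35 ± 0.26, adjusted p = 3.25e-11) and Zar1, an oocyte factor that binds stored mRNAs, the third (-4.41 ± 0.34, adjusted p = 3.43e-08).

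In the list around Eif2 phosphorylation Ppp1r15a, which directs a phosphatase to Eif2, had the smallest p at the first 3 steps. It changed by -3.99 ± 0.27 at the oocyte to IVF 1-cell step (adjusted p = 1.78e-08), by 5.66 ± 0.27 at the 1-cell to 2-cell step (adjusted p = 1.82e-10) and by -3.40 ± 0.27 at the 2-cell to 4-cell step (adjusted p = 5.86e-07). Of the 13 genes 4 rose and 4 fell at the first of these steps, 5 rose and 1 fell at the second, and 3 rose and 4 fell at the third (10.5% and 13.3% of all genes at the third). In clones compared with IVF embryos 3 were higher at the 1-cell stage (against 3.52% of all genes), led by Dnajc3, an inhibitor of Eif2 kinases (2.58 ± 0.18, adjusted p = 0.00174), and 2 were lower at the 2-cell stage (against 1.86%), Ppp1r15a (-1.49 ± 0.16, adjusted p = 0.0107) and Ppp1r15b (-1.63).

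Of 16 genes of mTOR and S6 kinase control at the 1-cell stage 4 stood above and 2 below the IVF embryos in clones (25.0% and 12.5%, against 3.52% and 2.79% of all genes), 0 were called at the 2-cell and 4-cell stages by limma (4 and 5 at an unadjusted p under 0.05), and 2, 1 and 2 were lower at the 8-cell, morula and blastocyst stages. The higher ones included Rragc (1.18) and Ddit4 (1.73). List results with 1-cell clones were not repeated without cloned replicates 4 and 5. Eef1d, an exchange subunit for the elongation factor, was lower in clones at the 2-cell (-1.93), 4-cell (-1.76) and 8-cell (-1.10) stages. Across the 6 stages between 0 and 2 genes were called in either direction in the cap complex, scanning and release, elongation and polyadenylation lists.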

How the data were processed

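The deposited table holds log2 expression values of 45101 probe sets on 51 Affymetrix arrays, computed with RMA by the authors per the submitters' processing notes. Per the labels' protocols, the RNA of 1 oocyte or embryo was amplified in 2 rounds and labelled with biotin. The base of the log and the centring are not stated: in 94.3% of probe sets exactly 1 array is at 0 and between 24 and 26 are below it, so values were read as log2 differences from each probe set's median array. The number of arrays limits the precision.

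Of the probe sets, 64 controls were left out of tests, 34945 had 1 gene symbol in the platform annotation, 932 had several and 9160 had none. Each of 18193 genes was read from its probe set of greatest SD across the 51 arrays, a rule that uses no group label. No filter or further normalisation was applied. Of the 45 members 35 had more than 1 probe set, and 6 probe sets shared with other symbols were not used.

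Differences were tested with limma 3.58.1 (lmFit, eBayes) in R 4.3.3, with Benjamini-Hochberg adjustment over 18193 genes in each comparison and a threshold of 0.05; a member that passed is said to be called, to have risen or to have fallen. Each stage was fitted on its 8 arrays, the IVF steps on 21, the step from oocyte to cloned 1-cell embryo on 8, clone steps on 30 and differences of steps on 51. Replicate numbers were not used as pairs. Data were simulated with each gene's spread within groups, pooled over all 51 arrays, not the spread of 1 stage. With the group sizes of the 1-cell comparison, 77% of genes changed by 3 (log2) and 23% of those changed by 1 were called.

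Named were up to 8 called members per stage, up to 5 per direction of a step, 7 members followed at every stage, and up to 2 genes per list; values of other probe sets come from a fit of all probe sets. Members, lists and tests were chosen with earlier results of these data known. Alternatives were array medians as centre, the mean of all probe sets, leaving out the 30% of genes with the lowest SD, a replicate block, hybridisation controls as covariate, 1 fit of all arrays, leaving out each replicate and, added after seeing the data, leaving out 1-cell clones 4 and 5.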

Additional observations from a re-analysis of the deposited data

Results flagged for a closer look

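In 8 groups of 5 clones 1 embryo stood far from the rest, by the gap to its nearest neighbour over the group's range (critical value 0.71; 73 such groups were examined, and chance gives about 1 in 20). For Eif4ebp1 the ratio was 0.776 at the 1-cell stage, where replicate 2 stood at -6.89 and the rest between -5.66 and -5.30, 0.729 at the 4-cell stage (replicate 5 at -0.44, the rest from 0.57 to 0.95) and 0.813 in blastocysts (replicate 2 at 0.26, the rest from 0.69 to 0.79). It was 0.789 for Eif3i at the 2-cell stage (replicate 4 at -2.24, the rest from -1.29 to -1.04). For Eif1ax at the 2-cell stage it was 0.985 (replicate 2 at -0.70, the rest from -1.81 to -1.79), for Eif3c at the 4-cell stage 0.823 (replicate 5 at -0.31, the rest from 0.35 to 0.49), for Eif2b5 at the 8-cell stage 0.762 (replicate 5 at 0.00, the rest from 0.32 to 0.42) and for Eif3a in blastocysts 0.764 (replicate 3 at 0.36, the rest from 0.58 to 0.65).

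Among the members named by the rule of up to 5 per direction, changes that differed between clones and IVF embryos by limma's test of the difference (clone change minus IVF change, log2) were, at the 1-cell to 2-cell step, 0.98 for Eif3e, 1.74 for Eif2b5, 1.14 for Eif4b, -2.28 for Eif3i, -2.24 for Eif2b1, -2.75 for Eif3a, -1.76 for Eif3d and -3.10 for Eif1ax. At the 2-cell to 4-cell step they were 2.30 for Eif1a and 2.09 for Eif3a. At the 8-cell to morula step they were 1.34 for Eif4enif1, -0.46 for Eif4a3 and -1.87 for Eif4g2. Eif3a thus differed in opposite directions at successive steps that share the 2-cell embryos. A 6th member with a negative difference at the 1-cell to 2-cell step, Eif2ak3, falls outside that rule (-2.06).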

How the results depend on the processing

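Between clones and IVF embryos, the 31 calls were the results most open to processing, though 2 settings, the covariate and the fit of all 51 arrays, were run only on them. The members called numbered 5, 3, 7, 8, 0 and 8 from the 1-cell stage to the blastocyst. In 1 fit of all 51 arrays they numbered 11, 12, 11, 14, 1 and 0. With the hybridisation controls as covariate they were 0 at the 2-, 4- and 8-cell stages and 2 in blastocysts. Of the 31 named calls 27 were then lost, but the controls did not overlap between the groups at the first 4 stages. With the mean of all probe sets the members called were 3 at the 4-cell and 2 at the 8-cell stage. Leaving out the genes with the lowest SD gave 8 at the 1-cell, 7 at the 2-cell and 1 at the morula stage. The cause was not tested. Without 1 replicate the counts ranged from 2 to 6, 1 to 3, 2 to 7, 2 to 7, 0 to 1 and 1 to 7. Without 1-cell clones 4 and 5, an alternative chosen after seeing the data, 6 members were called at the 1-cell stage (3 higher, 3 lower), 22 from oocyte to cloned 1-cell, 33 at the next clone step and 10 in its difference from IVF.

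Replicate numbers recur across groups. Within a stage, residuals of clones and IVF embryos with the same number, 1 to 3, correlated between only -0.204 and 0.102. This gave no sign that the numbers pair clones with IVF embryos of a stage. Pairing across stages, or of clone replicates 4 and 5, was not tested. With the replicate number as a block, which leaves few residual degrees of freedom on 8 arrays, 0 members were called between clones and IVF embryos at each of the 6 stages (37 of all genes at the 1-cell stage, and between 1730 and 3420 at an unadjusted p under 0.05). The block left 7 called from MII oocyte to cloned 1-cell; 1 named call of an IVF step and 3 of that oocyte step were lost, and no named call of a clone step or of a difference of steps.

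The steps depended less on the choices applied to them. The hybridisation controls as covariate and the alternative fit of all 51 arrays were run only for clones against IVF embryos within a stage. The controls also differed between stages. In IVF embryos they ran from 0.53 to 0.79 at the 1-cell stage and from -0.734 to -0.227 at the 2-cell stage. Their part in the calls of the steps was not tested. Without 1 replicate the IVF steps had 29 to 32, 33 to 36, 13 to 20, 0 to 1, 8 to 13 and 6 to 11 members called, the step from oocyte to cloned 1-cell 17 to 21, the clone steps 34, 24 to 27, 2 to 4, 9 to 12 and 11 to 14, and the differences of steps 7 to 10, 1 to 3, 0, 1 to 4 and 0 to 1. Of named calls, centring on array medians ended 2 between clones and IVF embryos and 1 difference of steps.

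Another probe set changed the sign most often. With the mean of all probe sets Eif2ak1 in blastocysts was 0.06 and the Eif3e difference of steps -0.17. Single other probe sets gave these values of opposite sign to the one reported, and the cause was not tested. Between clones and IVF embryos they were, at 1-cell, Eif2s2 0.52, 0.13, 0.76 and Eif3e 0.15, 0.09, 0.31. At 2-cell they were Eif3h 0.01 and 0.01. At 4-cell they were Eif3d 0.15, Eif3h 0.03, Eif4a1 0.31, Eif5 0.18 and 1.65, Eif3c 0.18 and 0.01 and Eif2b5 0.12. At 8-cell they were Eif5 0.90 and 0.51, Eif3l 0.08, Eif4g2 -0.64 and -0.07, Eif4b 0.05 and 0.36 and Eif4a1 0.33. At blastocyst they were Eif5b 0.02, Eif2ak1 1.00 and 0.32, Eif2ak4 0.02 and Eif2s2 0.05. For the IVF steps they were, at oocyte to 1-cell, Eif4h -0.11, Eif2b5 -0.02, Eif3h -0.03 and -0.03, Eif3c -2.86 and Eif2ak3 0.01. At 1-cell to 2-cell they were Eif2ak3 -1.28, Eif4ebp2 -0.10, -0.00, -0.11, Eif4e 1.65 and 1.12 and Eif2s2 0.14. At 2-cell to 4-cell they were Eif4e -0.34 and -0.01, Eif2b5 -0.00 and Eif2ak4 0.02. At 4-cell to 8-cell they were Eif4e -0.56 and -0.34. At 8-cell to morula they were Eif4g2 -0.15, Eif5a -0.15 and Eif2d -0.29. At morula to blastocyst they were Eif2ak4 -0.07, Eif4g3 -0.04 and -0.18, Eif4a1 0.70 and Eif2d 0.03. From MII oocyte to cloned 1-cell they were Eif4h -0.12, Eif2s2 -0.09 and -0.08, Eif3c -0.94 and Eif4g3 0.60 and 0.28. For the clone steps they were, at 1-cell to 2-cell, Eif5 -1.09 and -0.30, Eif4e 1.96 and 2.12 and Eif2s2 1.28, 1.75, 0.66. At 2-cell to 4-cell they were Eif2ak4 0.05. At 4-cell to 8-cell they were Eif4g2 -0.09 and -0.37. At 8-cell to morula they were Eif3e -0.04, Eif4ebp1 -0.36, Eif5a2 0.44 and Eif1ax 0.26. At morula to blastocyst they were Eif2ak4 -0.19, Eif3d -0.05, Eif2ak2 -0.07 and -0.10 and Eif4b 0.51. For the differences of steps they were, at 1-cell to 2-cell, Eif3e -0.12, -0.45, -1.09, Eif4b -0.81, Eif3a 0.14 and 0.85 and Eif3d 0.01. At 2-cell to 4-cell they were Eif3a -0.14 and -0.39. At 8-cell to morula they were Eif4g2 0.28 and 0.33.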
